A study of Mus musculus with 6 samples.

Results

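Csmd1, Lrrtm4, Cntn5, Il1rapl2, Nxph1, Lingo2, Lrp1b, Dscam and Ntrk2 encode neuronal adhesion and receptor proteins. They were followed across the cell classes of the mouse retina, with most attention to Müller glia, the radial glia that span the retina. The 9 genes were taken by symbol from the 32285 genes of the count matrices, and each symbol matched 1 gene. They had been chosen by their counts in Müller glia of these same libraries, which were higher in old than in young retinas. Their age difference in Müller glia, and their levels across classes, are therefore given as a description and without a test. The data were single-nucleus RNA sequencing counts of retinas, made with the droplet-based 3′ kit of 10x Genomics (version 3.1), from wildtype (WT) C57BL6/J mice. There were 3 libraries from mice aged 18 months (18mo) and 3 from mice aged 3 months (3mo), and no treated or mutant animals entered. Whether the libraries come from different animals, and whether retinas were pooled, is not stated, so p-values measure only the spread between these libraries, which may be technical.

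Neurons of the retina meet in layered synapses, where adhesion proteins on the receiving side bind neurexins or receptor phosphatases on the sending side and help to set which partners connect. Müller glia wrap these neurons, take up transmitter and buffer potassium, and share the inner nuclear layer with bipolar, amacrine and horizontal cells. Droplet methods also capture RNA that leaked from other cells, so that a nucleus can carry counts of genes it does not express, and genes with long introns give many counts in nuclei.

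The 9 genes lie on 8 chromosomes and all are protein-coding in GENCODE M21 (build GRCm38, mm10). The excitatory synapse organiser Lrrtm4, which binds neurexins and heparan sulfate proteoglycans, lies at chr6:80018877-80810143 on the plus strand. The neurexin ligand Nxph1 (neurexophilin) lies on the same strand of the same chromosome at chr6:8948431-9249032. Il1rapl2, of the interleukin-1 receptor accessory family, lies at chrX:137570608-138846946 on the plus strand, and Lingo2, a leucine-rich repeat membrane protein, at chr4:35706647-36951747 on the minus strand. The contactin Cntn5 lies at chr9:9660891-10904775 and Dscam, which mediates self-avoidance of neurites in the mouse retina, at chr16:96590840-97170752, both on the minus strand. Csmd1, with its CUB and Sushi domains of the kind found in complement regulators, lies at chr8:15892537-17535586, and Lrp1b, of the LDL receptor family, at chr2:40595246-42653624, both on the minus strand. Ntrk2, which encodes the BDNF receptor TrkB, lies at chr13:58806569-59133970 on the plus strand. Their spans ran from 301 kb in Nxph1 to 2058 kb in Lrp1b, against a median of 17.4 kb over 21625 coding genes, so that each was longer than at least 97.4% of them.

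Promoter windows were available from RefSeq (GRCm38.p6) for 7 of the 9 genes, in 10 windows of 250 bases before a RefSeq start. There was no entry for Csmd1 or Lrp1b. The windows of Lrrtm4 (chr6:80018627-80018876, plus strand), Ntrk2 (chr13:58806319-58806568, plus strand) and Cntn5 (chr9:10904776-10905025, minus strand) are shown because they end at the annotated start of the gene and hold many, 1 and no copies of the E-box CANNTG. Capitals mark that motif, read on both strands, which is the same search because its letters are their own reverse complement.
Lrrtm4: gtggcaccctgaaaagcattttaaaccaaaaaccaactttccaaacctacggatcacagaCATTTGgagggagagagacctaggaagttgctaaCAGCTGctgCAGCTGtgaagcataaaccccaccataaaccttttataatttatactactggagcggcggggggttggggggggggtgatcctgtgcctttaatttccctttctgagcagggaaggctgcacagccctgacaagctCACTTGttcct
Ntrk2: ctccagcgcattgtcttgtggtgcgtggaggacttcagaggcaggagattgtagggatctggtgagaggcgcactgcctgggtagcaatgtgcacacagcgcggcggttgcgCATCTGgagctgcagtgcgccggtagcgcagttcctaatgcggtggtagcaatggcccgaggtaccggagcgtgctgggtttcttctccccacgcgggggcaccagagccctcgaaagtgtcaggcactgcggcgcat
Cntn5: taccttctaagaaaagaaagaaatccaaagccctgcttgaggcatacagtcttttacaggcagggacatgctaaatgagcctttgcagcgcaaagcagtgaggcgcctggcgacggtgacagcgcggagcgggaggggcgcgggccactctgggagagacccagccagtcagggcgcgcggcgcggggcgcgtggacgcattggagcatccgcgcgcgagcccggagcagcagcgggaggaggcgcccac
CANNTG stood 4 times in the Lrrtm4 window and was in 7 of the 10 windows, against 66.2% of 32851 windows of that length. A further Cntn5 window, which overlaps the one shown and ends at a RefSeq start 49 bases inside the gene, held 3 copies. TAATCC, the letters bound by CRX and OTX2 in photoreceptors and bipolar cells, read on both strands with no overlap with CANNTG, was in 0 of the 10 and in 6.25% of all windows.

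The libraries held 21453735, 29340705 and 21803522 UMIs (unique molecular identifiers, each 1 captured RNA molecule) in 18mo replicates 1 to 3 and 19449782, 15905689 and 20364509 in 3mo replicates 1 to 3 before filtering. After filtering, 5613, 14083 and 12789 nuclei were left at 18mo and 5027, 6192 and 6537 at 3mo. Cell classes are clusters named from marker genes and are to be read as "like" the class. Of 56 clusters, 32 could be named. The 18mo replicate 3 library stood apart, because 84.1% of its nuclei fell in unnamed clusters, against at most 36.4% in any other library. The results below that change most without this library are therefore also given without it. An unnamed cluster of 5718 nuclei, with too few markers of any class, held 5566 nuclei of this library. Lrrtm4 and Lingo2, which are among the genes followed here, were among the lead genes of that cluster. Its nuclei entered no class, and their bearing on the class levels of this library was not tested. Pairs of libraries shared 8 to 53 cell barcodes, against 4.15 to 26.5 expected by chance. Replicate 1 of each age was processed with another release of Cell Ranger (7.1.0) than the rest (7.2.0). Müller glia were a single cluster of 1221 nuclei, in which 15 of 18 Müller markers were raised over the other clusters. It held 187, 333 and 83 nuclei at 18mo and 495, 57 and 66 at 3mo, with summed UMIs of 495055, 563735 and 97837 at 18mo and 855594, 115815 and 103203 at 3mo. The 3mo mean therefore rests on 1 deep and 2 shallow libraries. At 18mo replicate 3 was shallow too, with the fewest Müller UMIs of any library.

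No gene of the 9 had its highest level in Müller glia. Levels are counts summed per class and library and scaled to a common total per sum (CPM), given as the mean over all 6 libraries ± SD. All 9 were highest in a neuron of the inner retina or in horizontal cells, and Müller glia ranked between rank 3 and rank 6 of 8 classes, at 4.20% (Lrrtm4) to 35.4% (Ntrk2) of the highest class.

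Among the synapse organisers, Lrrtm4 averaged 6523 ± 1082 CPM in rod bipolar cells and 1127 ± 108 CPM in amacrine cells (n = 6 each), whose ranges did not meet. It averaged 274 ± 229 CPM in Müller glia, within the range of horizontal cells (287 ± 369 CPM) and of rods (121 ± 120 CPM). In the reported clustering rod bipolar cells therefore stood apart from every other class for Lrrtm4. From ganglion cells (759 ± 71.9 CPM) downwards each class overlapped the next. The split between rod and cone bipolar cells depends on the clustering. At a Leiden resolution of 0.6 rod bipolar cells were 261 nuclei in 3mo replicate 3 and 804 in 18mo replicate 2, against 40 and 241 as reported. Cone bipolar cells of 3mo replicate 3 were then 86 nuclei, against 302 in their larger reported cluster alone. Levels and ranks in rod and cone bipolar cells, here and below, hold for the reported clustering only. Il1rapl2 averaged 411 ± 207 CPM in cone bipolar cells, 324 ± 31.3 CPM in amacrine cells and 308 ± 110 CPM in ganglion cells, and these overlapped. It averaged 66.4 ± 66.8 CPM in Müller glia. Nxph1 averaged 444 ± 327 CPM in cone bipolar cells, 152 ± 27.4 CPM in ganglion cells and 92.7 ± 68.9 CPM in Müller glia, each overlapping the next. Müller glia thus stood at rank 3 for Nxph1 over both ages pooled, at rank 3 within 18mo and at rank 4 within 3mo. Lingo2 averaged 2782 ± 397 CPM in ganglion cells, above every library of amacrine cells (1370 ± 298 CPM), and 345 ± 301 CPM in Müller glia.

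Of the immunoglobulin adhesion proteins, Cntn5 averaged 1422 ± 231 CPM in ganglion cells, 1353 ± 752 CPM in cone bipolar cells and 1118 ± 143 CPM in amacrine cells. These 3 classes overlapped, and every amacrine and ganglion cell library lay above rod bipolar cells (369 ± 148 CPM) and Müller glia (153 ± 126 CPM). Dscam averaged 872 ± 93.0 CPM in ganglion cells and 720 ± 125 CPM in amacrine cells, and it was the only gene of the 9 for which cones took rank 3, at 453 ± 187 CPM. Its level in Müller glia was 169 ± 85.7 CPM, close to that of rod bipolar cells (177 ± 59.4 CPM).

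Of the large receptors, Csmd1 averaged 850 ± 127 CPM in amacrine cells, 662 ± 252 CPM in rod bipolar cells and 456 ± 233 CPM in horizontal cells, with overlap, and 185 ± 89.5 CPM in Müller glia. Lrp1b averaged 2232 ± 410 CPM in amacrine cells and 2219 ± 383 CPM in ganglion cells, which could not be told apart, and 208 ± 122 CPM in Müller glia. Ntrk2 was the most even across horizontal, bipolar, amacrine and ganglion cells. It averaged 249 ± 32.0 CPM in horizontal cells and 162 ± 74.8 CPM in cone bipolar cells, with overlap at each step down. Its level was 88.1 ± 61.5 CPM in Müller glia and 24.5 ± 16.3 CPM in rods, the photoreceptors that were lowest or next to lowest for most of the 9 genes.

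**Figure D1:**
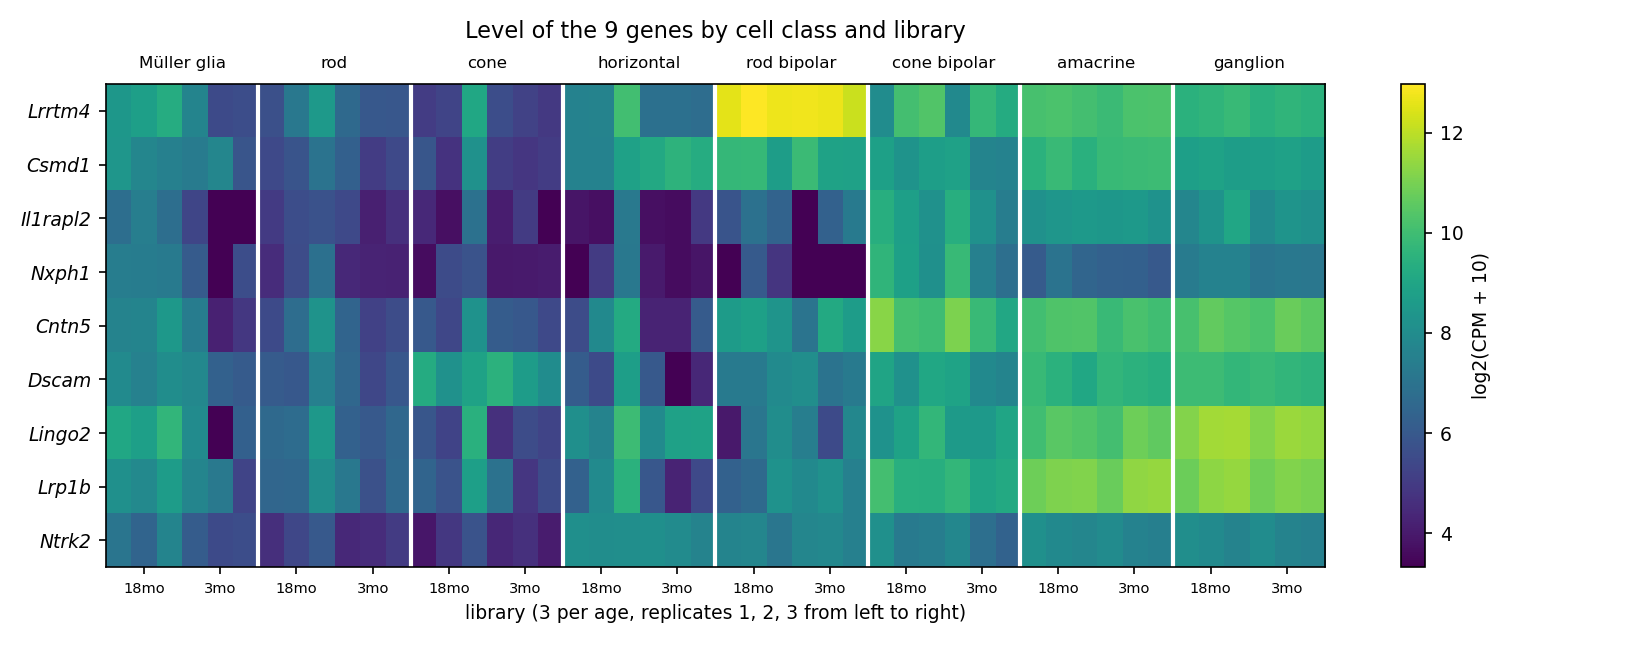
Level of each of the 9 genes (rows) as log2(CPM + 10), by colour, in each library (columns; replicates 1 to 3 of 18mo, then of 3mo) of 8 cell classes. The brightest fields lie in bipolar, amacrine and ganglion cells, with Lrrtm4 in rod bipolar cells at a mean of 6523 CPM, and the Müller glia columns are brighter at 18mo than at 3mo for most genes.

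In Müller glia all 9 genes had a higher mean at 18mo than at 3mo, and for 7 of the 9 every 18mo library lay above every 3mo library. The genes were chosen for this difference, so it supports nothing. Over all 8392 genes with a mean of at least 20 CPM in Müller glia, 5.21% were higher at 18mo with no overlap. Differences are between means of log2(CPM + 10), where the added 10 shrinks the change of low genes and shallow libraries count as much as deep ones. They were larger than the log2 fold changes of edgeR, the count model used below, for each of the 9 genes. The median over the 9 was 2.34 on this scale and 1.47 in edgeR.

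Lrrtm4 had 335, 429 and 613 CPM in 18mo replicates 1 to 3, against 194, 34.5 and 38.8 CPM in 3mo replicates 1 to 3, a difference of 2.58. Il1rapl2 had 101, 165 and 102 CPM at 18mo, against 30.4, 0 and 0 CPM at 3mo (difference 3.03). In each of these the deep 3mo library was the highest of its age and still lay below all 18mo libraries. A count of 0 in 3mo replicates 2 and 3 allows up to 25.9 and 29.1 CPM (3 counts of the total, counting error only), so the Il1rapl2 levels there are known only to that limit. Nxph1 had 162, 154 and 143 CPM at 18mo, against 58.4, 0 and 38.8 CPM at 3mo (difference 2.34). Lingo2 had 533, 429 and 797 CPM at 18mo, against 243, 0 and 67.8 CPM at 3mo, and its difference of 3.31 was the largest of the 9. Neither gene overlapped between ages, and both were at 0 in 3mo replicate 2.

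Cntn5 had 188, 195 and 348 CPM at 18mo, against 157, 8.63 and 19.4 CPM at 3mo (difference 2.44). Its 2 lower 3mo values rest on 1 and 2 UMIs. Dscam had 236, 177 and 256 CPM at 18mo, against 217, 69.1 and 58.1 CPM at 3mo (difference 1.11). Dscam overlapped, because 3mo replicate 1 lay above 18mo replicate 2, whereas the ages stood apart for Cntn5 by a small margin. Csmd1 had 323, 208 and 174 CPM at 18mo, against 151, 207 and 48.4 CPM at 3mo, and its difference of 0.90 was the smallest of the 9. Lrp1b had 275, 222 and 388 CPM at 18mo, against 199, 138 and 29.1 CPM at 3mo (difference 1.48). Ntrk2 had 125, 76.3 and 194 CPM at 18mo, against 59.6, 34.5 and 38.8 CPM at 3mo (difference 1.33). Csmd1 overlapped between ages, and Lrp1b and Ntrk2 did not.

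Summed over the 9 genes, Müller glia had 2279, 2056 and 3015 CPM at 18mo, against 1309, 492 and 339 CPM at 3mo. The spread at 3mo was wide, with the deep replicate 1 nearest to the 18mo libraries. Within release 7.1.0, which holds 18mo replicate 1 and that 3mo library, the median difference over the 9 genes was 0.96, against 2.84 within release 7.2.0 and 2.34 over all libraries. Without 18mo replicate 3 the median was 2.16, 8 of the 9 genes did not overlap (higher without overlap in 8.21% of 8379 genes), and all 9 remained higher at 18mo.

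**Figure D2:**
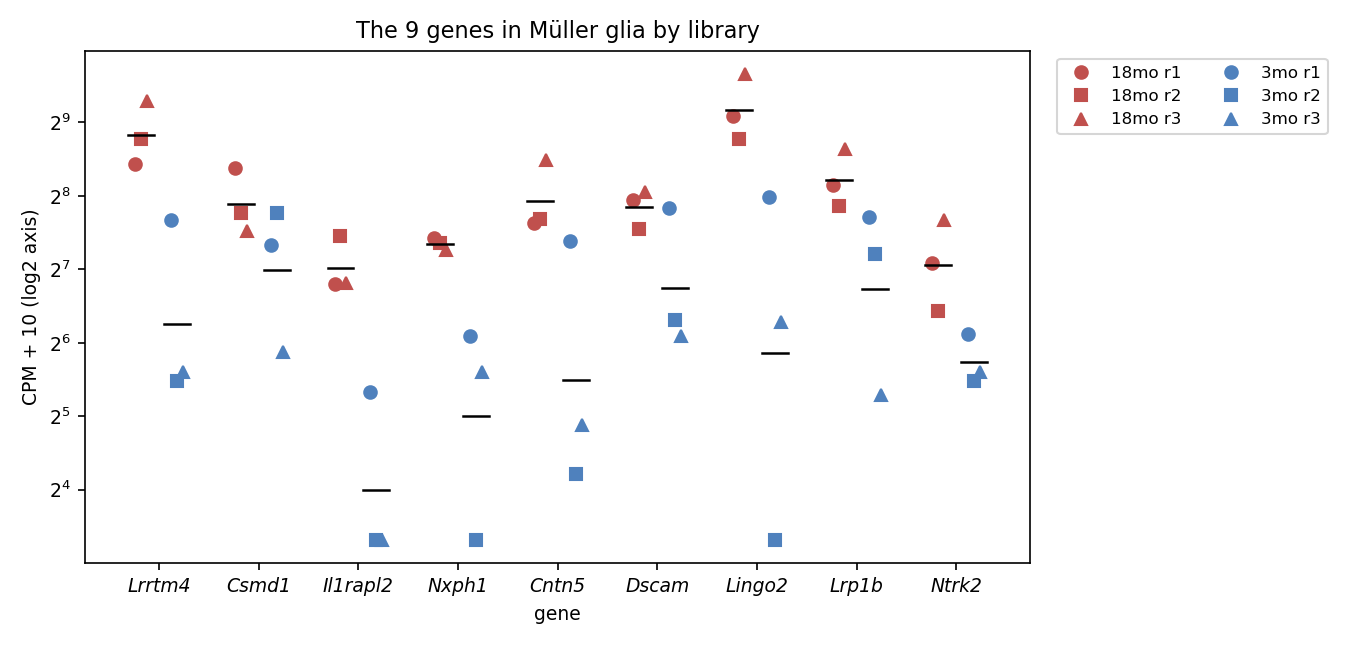
CPM + 10 in Müller glia (log2 axis) of each of the 9 genes, with 1 point per library, 18mo in red left of 3mo in blue, and a black line at the mean of each age on the log scale. Points at the bottom are counts of 0 in 3mo replicates 2 and 3, and 3mo replicate 1 is the highest 3mo point for 8 of the 9 genes.

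The level of a gene in Müller glia can be set against its level in the inner neurons of the same library (bipolar, amacrine and ganglion cells pooled). Counts are summed in this pool, so each class weighs by its UMIs, and these weights differed between libraries. Cone bipolar cells gave 387217 UMIs in 18mo replicate 1 and 4061604 in 3mo replicate 3. As the median over the 9 genes, Müller glia had 36.6%, 33.6% and 36.3% of the inner neuron level in 18mo replicates 1 to 3, against 21.6%, 3.63% and 5.15% in 3mo replicates 1 to 3. Rods had 5.50%, 8.63% and 23.5% at 18mo, against 8.09%, 4.86% and 6.79% at 3mo, and cones had 4.45%, 2.55% and 30.8% at 18mo, against 4.22%, 4.03% and 2.95% at 3mo. Müller glia lay above rods and cones in all 18mo libraries. The genes were picked for high Müller levels at 18mo, so that choice itself favours this pattern. In rods and cones 18mo replicate 3 alone was far above the others, and in horizontal cells it reached 61.1%. Among the genes, Nxph1 was closest to its pooled inner neuron level in Müller glia, with 107%, 64.0% and 96.3% at 18mo, against 33.9%, 0% and 33.3% at 3mo. Set against cone bipolar cells, its highest class, its mean in Müller glia over all libraries was 20.9%. Lrp1b was furthest from its pooled level at 18mo, with 15.8%, 12.6% and 16.9%, against 11.7%, 7.26% and 1.74% at 3mo.

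A panel of 27 marker genes of inner neurons also had a higher mean in Müller glia at 18mo. It summed to 1246, 997 and 1850 CPM in Müller glia at 18mo, against 907, 673 and 901 CPM at 3mo. The means were 1364 ± 439 CPM at 18mo and 827 ± 133 CPM at 3mo (SD, n = 3 each), with no overlap and p = 0.1 in a two-sided exact permutation test, the smallest p that 3 against 3 libraries allow. The difference of 537 CPM was 294 CPM without 18mo replicate 3. With classes from a marker gate per nucleus the panel averaged 1466 ± 483 CPM at 18mo and 1010 ± 134 CPM at 3mo, and the ages overlapped (exact p = 0.2, n = 3 each). Its bipolar genes (Trpm1, Grm6, Vsx1, Grik1 and others) averaged 517 ± 190 CPM at 18mo and 173 ± 86.1 CPM at 3mo (exact p = 0.1). Its amacrine genes averaged 348 ± 59.0 CPM at 18mo and 249 ± 82.8 CPM at 3mo (exact p = 0.2), and its ganglion cell genes 499 ± 191 CPM at 18mo and 405 ± 62.4 CPM at 3mo (exact p = 0.7). Within the bipolar genes Grik1, a kainate receptor subunit, had 370, 167 and 440 CPM at 18mo, against 122, 77.7 and 19.4 CPM at 3mo. Grik1 alone differed by 252 CPM of the 344 CPM between the ages, and the other 7 bipolar genes averaged 192 ± 91.7 CPM at 18mo and 100.1 ± 38.9 CPM at 3mo, with overlap (exact p = 0.2, n = 3 each). Of the 8 bipolar genes 7 had a higher mean at 18mo, and Cabp5, a calcium-binding protein, had a lower one. Other classes were also present: rod markers summed to 7417, 8660 and 10865 CPM in Müller glia at 18mo, against 15462, 18469 and 19941 CPM at 3mo, the opposite direction. Müller markers summed to 9355, 14874 and 7104 CPM at 18mo, against 8200, 9990 and 12044 CPM at 3mo, with overlap. The part of inner neuron RNA in the levels of the 9 genes was not tested.

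If the 9 genes stood in Müller glia in the same proportion to the panel as in inner neurons, the ratio of the measured to the expected level would be 1. The median ratio over the 9 genes was 1.03, 0.951 and 0.585 at 18mo, against 0.799, 0.145 and 0.151 at 3mo. It was 0.214, 0.236 and 0.484 in rods at 18mo, against 0.247, 0.155 and 0.163 in rods at 3mo. Müller glia lay above rods at 18mo in each library, whereas in 3mo replicates 2 and 3 they lay just below the rod value. The ratio uses the Müller levels by which the genes were picked, so that choice itself favours this age pattern, which is a description only. The ratio depends on the panel and the cells used as reference. With the ganglion cell genes alone and ganglion cells alone as reference, its mean over libraries was 2.52 at 18mo and 0.899 at 3mo. With all 27 genes and the pooled inner neurons it was 0.856 at 18mo and 0.365 at 3mo. Panel and reference changed together, so their parts cannot be told apart. A second panel of 41 genes, each spanning at least 500 kb and chosen in these data for levels in inner neurons, also averaged more in Müller glia at 18mo (14329 ± 3175 CPM) than at 3mo (7330 ± 2168 CPM, exact p = 0.1). Set against these long genes, the mean ratio was 1.21 at 18mo and 0.566 at 3mo.

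**Figure D3:**
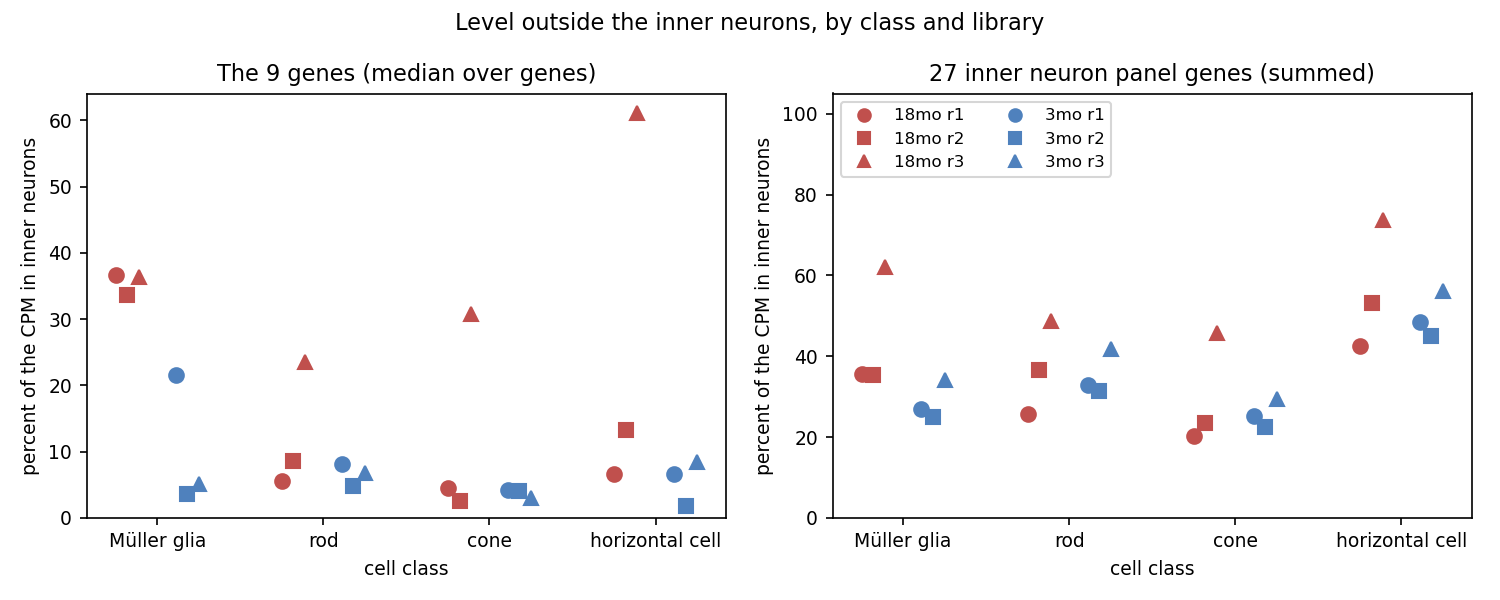
Percent of the inner neuron CPM found in 4 other classes, for the 9 genes (left, median over genes) and for 27 inner neuron marker genes summed (right), with 1 point per library. On the left the 3 18mo Müller glia points lie at 33.6% to 36.6% and 3mo replicates 2 and 3 at 3.63% and 5.15%, and in the other classes 18mo replicate 3 stands above the rest.

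Müller nuclei were also sorted by how many of the 9 genes had a UMI. The sorting itself places many UMIs of the 9 genes in the nuclei with 3 or more, and no other set of genes was compared. Nuclei with UMIs of 3 or more of the 9 genes made up 19.3%, 9.61% and 45.8% of Müller nuclei at 18mo, against 10.5%, 5.26% and 6.06% at 3mo. They held 87.3%, 84.5% and 77.6% of the UMIs of the 9 genes at 18mo, against 75.2%, 56.1% and 74.3% at 3mo. In 3mo replicates 2 and 3 these were 3 and 4 nuclei. Their median UMI total was 4362, 3174 and 1140 at 18mo, against 3728, 3250 and 3349 at 3mo, whereas Müller nuclei with none of the 9 had 1557, 1249 and 802 at 18mo, against 1171, 1565 and 1346 at 3mo. Deeper nuclei detect more genes, and the nuclei with 3 or more were deeper in all 6 libraries. With nuclei above 2 times the median UMI count of Müller glia in their library left out, all 9 genes were still higher at 18mo, with a median log2 difference of 1.87, and 5 of the 9 did not overlap (4.89% of 8308 genes were higher without overlap). Müller markers summed to 4986, 8988 and 6337 CPM at 18mo in the nuclei with 3 or more, against 3884, 7236 and 6468 CPM at 3mo. In the nuclei with none they summed to 13792, 18616 and 6372 CPM at 18mo, against 10768, 11074 and 13571 CPM at 3mo. The markers were thus lower in the nuclei rich in the 9 genes in 5 of 6 libraries, and about equal in 18mo replicate 3. The panel of inner neuron genes summed to 1864, 1736 and 1598 CPM at 18mo in the nuclei with 3 or more, against 1069, 1562 and 1690 CPM at 3mo. In the nuclei with none it summed to 614, 661 and 2249 CPM at 18mo, against 761, 417 and 700 CPM at 3mo. The inner neuron panel was thus higher in the nuclei rich in the 9 genes in the same 5 libraries, and lower in 18mo replicate 3. Whether such nuclei hold RNA of another cell was not tested.

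**Figure D4:**
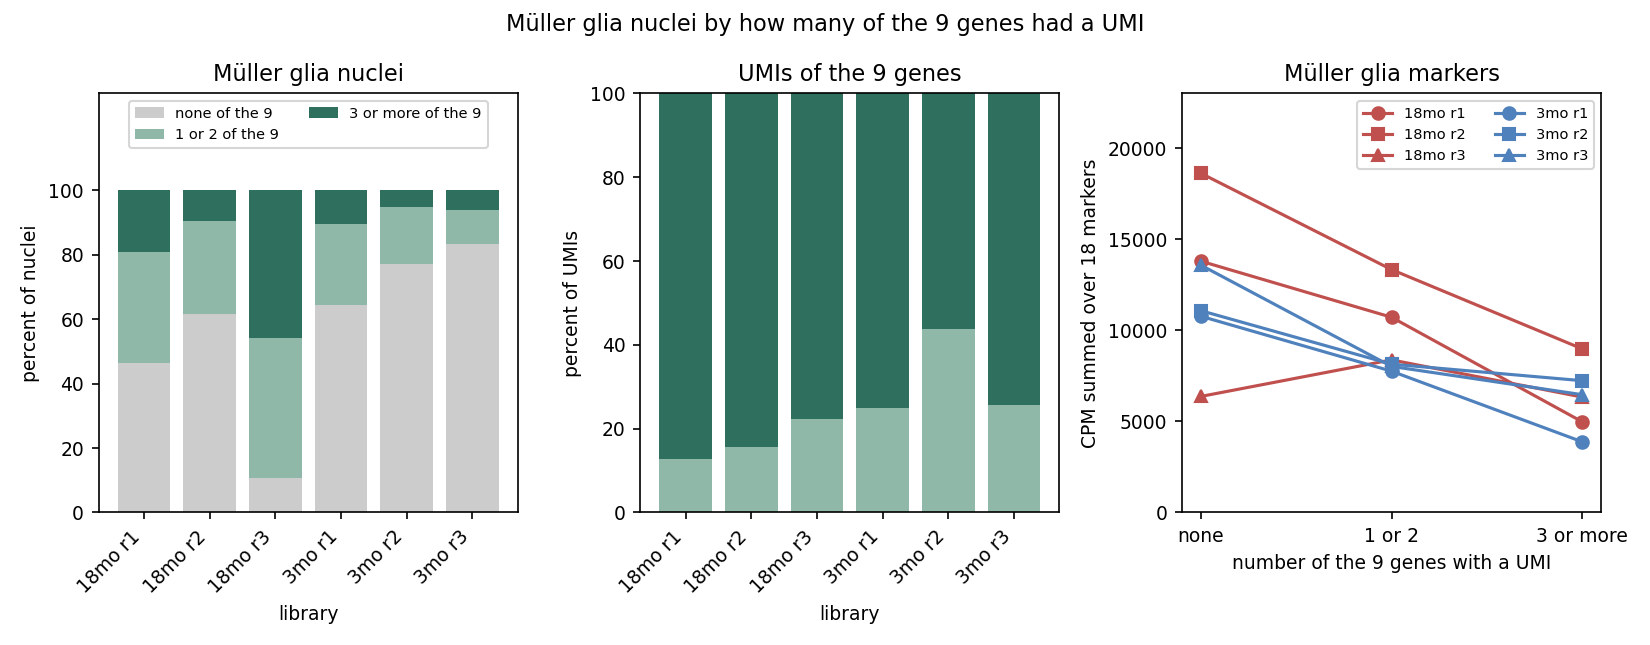
Müller glia nuclei by how many of the 9 genes had a UMI: their share of nuclei (left), their share of the UMIs of the 9 genes (middle) and their CPM summed over 18 Müller markers (right), for each library, 18mo left of 3mo. Nuclei with 3 or more of the genes held 56.1% to 87.3% of the UMIs, a share that the sorting itself favours. The marker sum is lower at the right than at the left in 5 of 6 libraries.

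When nuclei were thinned to 1000 UMIs each, the share of Müller nuclei with a UMI of Lrrtm4 was 14.8%, 8.40% and 45.2% at 18mo, against 9.41%, 2.13% and 4.26% at 3mo. In rods, a class in which Lrrtm4 was among the lowest, it was 2.23%, 9.52% and 23.5% at 18mo, against 5.79%, 3.82% and 3.94% at 3mo. Before thinning, the Müller shares were 19.3%, 10.5% and 48.2% at 18mo, against 11.3%, 5.26% and 4.55% at 3mo, at median UMI totals of 1855, 1375 and 1000 at 18mo, against 1316, 1742 and 1400 at 3mo. The unthinned rod shares were 4.59%, 8.52% and 32.7% at 18mo, against 6.64%, 3.81% and 3.26% at 3mo, at medians of 938, 884 and 1106 UMIs at 18mo, against 863, 872 and 858 at 3mo. In 18mo replicate 2 and 3mo replicate 2 the thinned Müller share of Lrrtm4 was thus not above that of rods. Thinning left out 18, 95 and 41 of 187, 333 and 83 Müller nuclei at 18mo, and 123, 10 and 19 of 495, 57 and 66 at 3mo. Rod medians lay under 1000 UMIs in every library but 18mo replicate 3. In those libraries thinning left out most rods, and the thinned rod shares describe the deeper ones. For Nxph1 the thinned share in Müller glia was 6.51%, 6.72% and 14.3% at 18mo, against 2.69%, 0% and 2.13% at 3mo, and in rods 1.01%, 2.30% and 9.80% at 18mo, against 1.05%, 0.867% and 0.951% at 3mo. For Csmd1 it was 13.6%, 7.98% and 9.52% in Müller glia at 18mo, against 5.65%, 4.26% and 2.13% at 3mo, and in rods 3.04%, 3.56% and 7.84% at 18mo, against 2.63%, 1.47% and 2.17% at 3mo. For both genes the Müller share was above the rod share in all 18mo libraries, by a small margin for Csmd1 in replicate 3 (9.52% against 7.84%). The genes were picked by their Müller counts, which favours this order.

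Müller nuclei without any UMI of the 27 panel genes were a smaller set of 44, 133 and 12 nuclei at 18mo, against 162, 21 and 25 at 3mo. In them Lrrtm4 had 7, 11 and 8 UMIs at 18mo, against 3, 0 and 0 at 3mo, equal to 111, 65.1 and 719 CPM at 18mo and 15.3, 0 and 0 CPM at 3mo. Lingo2 had 1, 8 and 10 UMIs at 18mo, against 5, 0 and 0 at 3mo, and Csmd1 had 3, 8 and 2 UMIs at 18mo, against 8, 0 and 0 at 3mo. In these nuclei 18mo replicate 3 carried the highest CPM of Lrrtm4 and Lingo2 from 8 and 10 UMIs. All 9 means were higher at 18mo, with a median log2 difference of 2.31, and 4 of the 9 genes did not overlap between ages, where 5.0% of 8119 genes were higher without overlap in the same nuclei. Selecting nuclei with no panel UMI also selects shallow nuclei, and most values at 3mo are counts of 0.

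Outside Müller glia the age difference was tested in 7 classes with edgeR's quasi-likelihood test over all genes, and none of the 9 genes passed an adjusted p of 0.05 in any class with age as the only term. The share of all tested genes that passed was 0% in each class but horizontal cells (0.0188%, 1 of 5310 genes). Unadjusted p was under 0.05 for 599 of 11547 genes in rods, 137 of 8097 in cones and 311 of 5310 in horizontal cells. There were 49 of 3128 in rod bipolar cells and 370 of 11442 in cone bipolar cells. Amacrine cells had 268 of 12052 and ganglion cells 259 of 14342. Few genes of any kind passed in this design. Same-numbered libraries deviated together and were taken as pairs, although numbers 2 and 3 could not be told apart that way, and with the number as a block 1 of the 9 genes passed in rods and 1 in horizontal cells. In cone bipolar cells none of the 9 passed with the block, although 2.2% of all genes did (0.769% as higher). A term for the Cell Ranger release, added to age, gave 1 of the 9 in rods, again Nxph1, where 5.85% of genes passed. It gave none in horizontal cells (0.264% of genes) and none in cone bipolar cells (4.25% of genes, 1.56% as higher). In Müller glia 0.705% of all genes passed with the release and 0.862% with the block, and the 9 genes, chosen by that contrast, were not counted there.

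In rods, Nxph1 had 13.2, 36.8 and 108 CPM at 18mo, against 11.4, 9.71 and 9.12 CPM at 3mo. All 18mo libraries lay above all 3mo libraries, 18mo replicate 1 only just. Its log2 fold change was 1.88 (SE 0.67, edgeR adjusted p = 0.673), and with the replicate block 1.91 (SE 0.41, adjusted p = 0.0112), where 8.74% of 11547 genes passed and 2.68% passed as higher. Without 18mo replicate 3 and with age alone the log2 fold change was 1.24 (SE 0.50, edgeR adjusted p = 0.802). Lrrtm4 had 41.7, 135 and 354 CPM in rods at 18mo, against 87.5, 53.7 and 51.1 CPM at 3mo (log2 1.17, SE 0.64, adjusted p = 0.673). It overlapped, with 18mo replicate 1 the lowest of all 6. The median log2 fold change of the 9 genes in rods was 0.79 with all libraries and 0.41 without 18mo replicate 3, when 6 of the 9 were positive. Over pooled nuclei the rod clusters differed between ages: clusters 4 and 3 held 40.5% and 36.5% of 18mo rods, while clusters 5 and 3 held 40.2% and 23.6% of 3mo rods. Replicate 2 gave 4768 of the 18mo rods, against 1089 and 162 in replicates 1 and 3. The clusters also differed between replicates: cluster 10 held 95.2% of rods in 18mo replicate 1 and 86.9% in 3mo replicate 1. In any other library it held at most 1.85%. The inner neuron panel averaged 1128 ± 288 CPM in rods at 18mo and 1017 ± 147 CPM at 3mo (exact permutation p = 0.8, n = 3 each), and its part in the rod values was not tested.

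In horizontal cells, Cntn5 had 37.0, 226 and 579 CPM at 18mo, against 9.52, 9.41 and 58.4 CPM at 3mo (log2 3.13, SE 0.89, adjusted p = 0.510). With the replicate block the log2 fold change was 3.21 (SE 0.38, edgeR adjusted p = 0.00675), where 0.546% of 5310 genes passed and 0.527% passed as higher. Cntn5 in 18mo replicate 1 lay below 3mo replicate 3, so the unpaired groups overlapped. Csmd1 was the exception in direction, with 185, 182 and 445 CPM at 18mo, against 559, 753 and 611 CPM at 3mo (log2 -1.47, SE 0.35, unadjusted p = 0.00207, edgeR adjusted p = 0.329). Every 18mo library lay below every 3mo library for Csmd1 in these cells, the class in which its mean was next below rod bipolar cells, while in Müller glia its 18mo mean was the higher one. Lrp1b had 69.3, 232 and 698 CPM at 18mo, against 50.8, 9.41 and 33.7 CPM at 3mo (log2 3.22, SE 0.76, adjusted p = 0.329). Ntrk2 had close values at both ages, with 273, 257 and 261 CPM at 18mo, against 270, 245 and 187 CPM at 3mo (log2 -0.0024, SE 0.24). The highest values of Cntn5, Lrp1b and Csmd1 at 18mo all came from replicate 3, and the median of the 7 genes tested was 1.91 with all libraries and 0.69 without it. Without 18mo replicate 3 the log2 fold change was 2.18 (SE 0.82) for Cntn5, 2.22 (SE 0.60) for Lrp1b and -1.95 (SE 0.28) for Csmd1, and none of the 3 passed. Without 18mo replicate 1, Lrp1b, Cntn5 and Lrrtm4 passed in horizontal cells (edgeR adjusted p = 0.00406, 0.00824 and 0.0361), where 2.49% of 5951 genes passed and 2.35% passed as higher.

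In cones 6 of the 9 genes were tested. Lingo2 had 50.6, 28.2 and 687 CPM at 18mo, against 15.5, 37.1 and 29.6 CPM at 3mo (log2 2.98, SE 1.12, edgeR adjusted p = 0.9998). Only 18mo replicate 3 stood out, and without it the log2 fold change of Lingo2 was 0.51 (SE 0.50). The median of the 6 genes was 1.67 with all libraries, with 5 positive, and -0.05 without 18mo replicate 3, with 2 positive. Dscam, the member that cones hold at a high level, had 608, 287 and 458 CPM at 18mo, against 729, 389 and 246 CPM at 3mo (log2 -0.08, SE 0.43). In the neurons where the genes are highest, differences were small: the median log2 fold change was -0.05 in amacrine cells, 0.14 in ganglion cells, 0.33 in cone bipolar cells and -0.03 over 8 genes in rod bipolar cells. Lrrtm4 in rod bipolar cells, its highest class, had 6108, 7993 and 6802 CPM at 18mo, against 6916, 6610 and 4711 CPM at 3mo, with overlap. Its log2 fold change there was 0.17 (SE 0.25) as reported and 0.27 (SE 0.95) at a Leiden resolution of 0.6. Lrp1b in amacrine cells had 1829, 2173 and 2263 CPM at 18mo, against 1743, 2625 and 2759 CPM at 3mo, again with overlap.

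**Figure D5:**
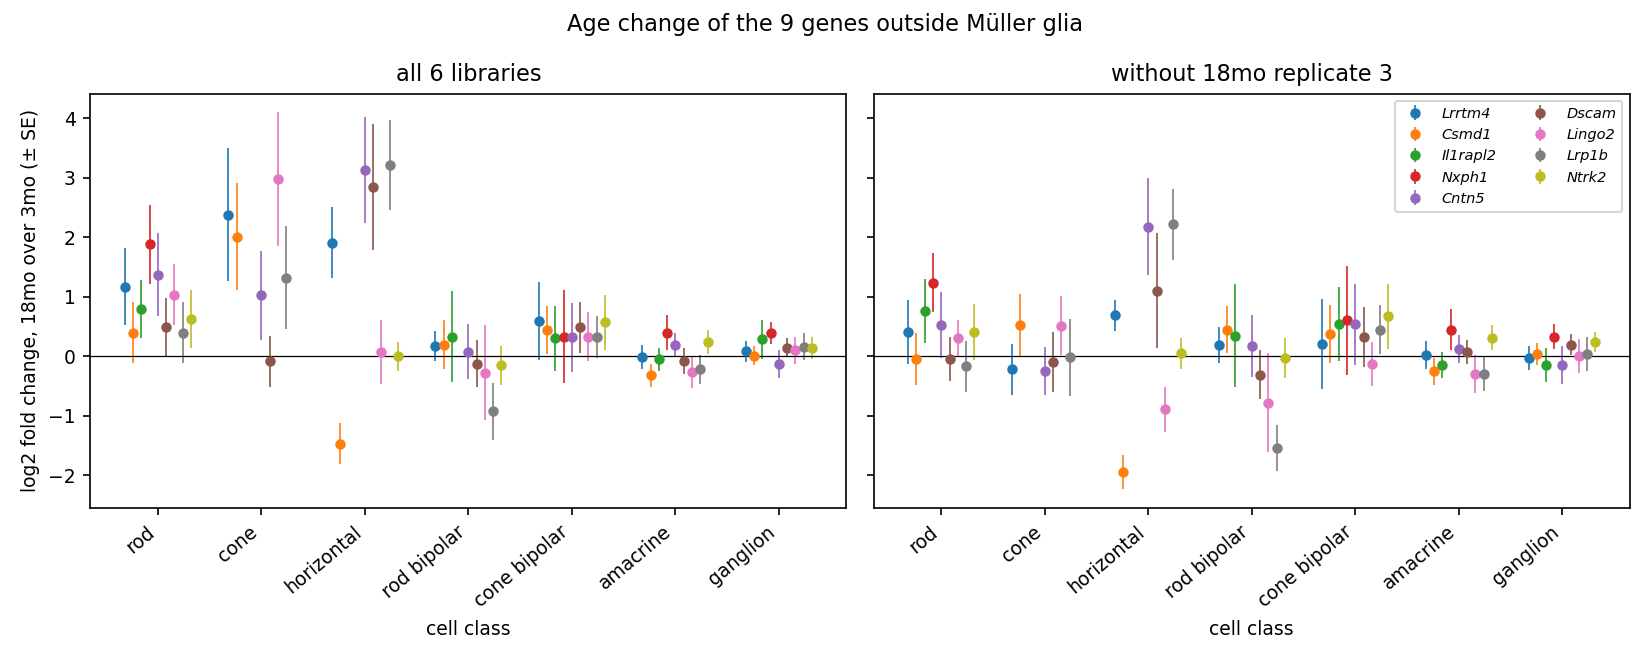
Log2 fold change of 18mo over 3mo (edgeR, bars ± SE) of the 9 genes in 7 classes, with all 6 libraries (left) and without 18mo replicate 3 (right). The medians in rods and horizontal cells are 0.79 and 1.91 on the left and 0.41 and 0.69 on the right, while amacrine and ganglion cells stay near 0 in both.

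The age changes in rods and in amacrine cells were compared in 1 model with a class by age term, where a positive value means a larger change in rods. None of the 9 genes passed an adjusted p of 0.05 (edgeR), and 0.00761% of 13147 genes did. The term was positive for 9 of 9 genes, with a median of 0.83, and was largest for Nxph1 (1.17, unadjusted p = 0.0269, adjusted p = 0.907) and smallest for Ntrk2 (0.25). Without 18mo replicate 3 the median was 0.24 and 7 of the 9 were positive.

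Relatives of the 9 genes, a list of 84 genes from their families and known partners, allow a look at genes that were not picked for their change in Müller glia. In Müller glia 51 were tested and 0 passed in edgeR with age as the only term, as for all genes (0% of 6382; 182 genes at an unadjusted p under 0.05). Of the 51, 37 were higher at 18mo, with a median log2 fold change of 0.16. The contactin relative Cntnap2, which organises potassium channels at axons, had 691, 912 and 1482 CPM at 18mo, against 427, 276 and 446 CPM at 3mo. The ages did not overlap, and Cntnap2 passed with the replicate block (log2 1.26, SE 0.25, edgeR adjusted p = 0.0229), where 0.862% of genes passed and 0.345% passed as higher. The contactin Cntn4 had 224, 298 and 460 CPM at 18mo, against 194, 112 and 96.9 CPM at 3mo. It did not overlap either, with an age-only log2 fold change of 1.10.

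The relatives were also grouped by where they are highest. The 31 relatives with their highest level in inner neurons had a median log2 fold change of 0.24 in Müller glia, with 23 positive and 6 not overlapping, all 6 higher at 18mo, beside the 5.21% of genes above that were higher without overlap. Their log2 fold changes ran from -0.64 to 1.34. The 12 with their highest level in Müller glia had a median of 0.03, with 8 positive and 0 not overlapping, and ran from -0.44 to 0.47, within the range of the first set. The 8 highest in rods, cones or horizontal cells had a median of 0.12, with 6 positive and 0 not overlapping. Nlgn1, a neuroligin of the set highest in Müller glia, had 3341, 4328 and 3097 CPM at 18mo, against 4072, 4758 and 3265 CPM at 3mo, with overlap (log2 -0.22). Cntn1 had 531, 594 and 429 CPM at 18mo, against 524, 440 and 494 CPM at 3mo, with overlap (log2 0.05). The differences between the 3 sets of relatives were not tested.

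With the replicate block, 9 of 60 tested relatives passed in rods, 7 higher and 2 lower, where 8.74% of all genes passed and 2.68% passed as higher. Il1rapl1, the closest relative of Il1rapl2, was higher in rods at 18mo (log2 1.18, SE 0.30, edgeR adjusted p = 0.0226), as was Sdk1, an adhesion protein of the DSCAM list (log2 1.24, SE 0.33, adjusted p = 0.0273). The lipoprotein receptor Vldlr (log2 -1.01, SE 0.25, adjusted p = 0.0214) and Lingo3 (log2 -1.06, SE 0.31, adjusted p = 0.0397) were lower. In horizontal cells the teneurins Tenm2 and Tenm3 (log2 3.73 and 3.72) and Sorcs1 (log2 2.95) passed with the block, at edgeR adjusted p of 0.0139 for both teneurins and 0.0108 for Sorcs1, where 0.546% of all genes passed.

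All 9 genes span at least 300 kb, and long genes as a whole were higher at 18mo in most classes. In Müller glia 81.8% of 462 tested genes of 300 kb or longer had a positive log2 fold change, with a median of 0.27, against 47.3% and a median of -0.02 for shorter genes. In rods it was 96.3% of 480 genes with a median of 0.68, against 45.1% and -0.07 for shorter genes, and in amacrine cells 71.5% of 534 genes with a median of 0.14, against 48.0% and -0.01. On the same edgeR measure the 9 genes had log2 fold changes of 0.71 to 2.67 in Müller glia. These were larger than the median of long genes, but the 9 were picked for that difference. The part of gene span was not tested.

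Over 48 sums of a class in a library, the levels of the 9 genes ranged from closely alike to unlike. The closest pair was Il1rapl2 and Cntn5 (Pearson r = 0.899) and the least alike Ntrk2 and Dscam (r = 0.127), with points sharing libraries and depth and no p given. Among 10997 other genes, the pattern of Lrrtm4 was most like that of Fstl5 (r = 0.962) and of the DSCAM relative Sdk1 (r = 0.945), and Csmd1 was most like the potassium channel subunit Dpp6 (r = 0.939). Lrp1b was most like the neuregulin Nrg3 (r = 0.961), Lingo2 like the adhesion protein Opcml (r = 0.943) and Ntrk2 like Frmd4a (r = 0.968). Cntn5 was most like Prr16 (r = 0.925), Dscam like the GABA receptor subunit Gabrg3 (r = 0.885) and Nxph1 like the muscarinic receptor Chrm2 (r = 0.794), the weakest of the best matches. Il1rapl2 was most like Cntn5 itself.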

How the data were processed

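The deposited files held raw UMI counts per gene and barcode in 6 matrices, a unit tested on the values. Cell Ranger made them, per the file headers (7.1.0 for replicate 1 of each age, 7.2.0 for the rest); mm10 and Seurat are named in the submitters' processing notes. Nuclei with at least 300 genes and at most 5% mitochondrial UMIs were kept. This filter removed 9.16%, 2.11% and 1.12% of barcodes at 18mo and 41.9%, 23.8% and 9.36% at 3mo. The doublet caller marked at most 6 nuclei per library, so the highest scores were removed instead, at 0.8% per 1000 nuclei. Clustering (scanpy 1.11.5, 2000 genes, 30 components, 15 neighbours, Leiden resolution 1) used no integration. Clusters took a class when at least 3 markers, and 25% of its list, exceeded a log2 fold of 1.

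Counts were summed per class and library. The 8 classes that reached 20 nuclei in each of the libraries were tested in edgeR 4.0.16 (R 4.3.3; TMM, filterByExpr, quasi-likelihood, Benjamini-Hochberg at 0.05), with simulated data as a check. DESeq2 1.42.0, other filters, clusterings and left-out libraries were alternatives. Intervals and floors cover counting error only.

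The same replicate number in each age correlated at 0.743, 0.644 and 0.269 in the deviations of 18242 genes from the group means over all nuclei, all over the limit of 0.1, and the numbers were taken as pairs. Some unmatched numbers correlated too: 18mo replicate 2 with 3mo replicate 3 correlated at 0.539 and 18mo replicate 3 with 3mo replicate 2 at 0.395, so the check sets replicate 1 apart and does not tell 2 from 3. In Müller glia the matched correlations were 0.602, 0.209 and 0.0946. The source of the pairing is these data, not the labels, and replicate 1 also differs in release. Counts of calls had been seen when this check was read; that limit was not changed.

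Members, gene lists and marker lists were chosen with earlier results of these data known, and the naming settings after looking at the clusters and the levels of the 9 genes. Named were the 9 genes, relatives that were called or among the 4 highest of their family, and for each of the 9 the best matches in pattern, at most 3.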

Additional observations from a re-analysis of the deposited data

Results flagged for a closer look

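The class by age term between rods and amacrine cells was past the threshold for 1 gene, which is not among the 9. Dpp10, a subunit of voltage-gated potassium channels, differed by 3.13 on the log2 scale (SE 0.44, edgeR adjusted p = 0.0143), with the larger change in rods. The difference was 3.03 without 18mo replicate 3, the library that stands apart (adjusted p = 0.0150). The call was lost without 18mo replicate 2 (2.84, adjusted p = 0.205), without 3mo replicate 2 (3.03, adjusted p = 0.260) and without 3mo replicate 3 (3.07, adjusted p = 0.639). The rod clusters differ between ages and between replicate 1 and the other replicates, and their part in this value was not tested.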

How the results depend on the processing

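In Müller glia all 9 genes remained higher at 18mo under every alternative run. The median log2 difference of 2.34 was 1.42 with classes from a marker gate per nucleus and 0.96 within Cell Ranger release 7.1.0, and it ranged from 1.72 to 2.88 when each library was left out in turn. With nuclei above 2 times the median UMI count left out, chosen after seeing the data, it was 1.87. In nuclei with 0 panel UMIs 4 of the 9 genes did not overlap between ages. Set against the inner neuron markers, the mean ratio of 0.856 at 18mo was 2.52 with the ganglion cell panel and ganglion cells as reference. It was 1.21 with the long-gene panel (added after seeing the data) and 1.13 with the marker gate. At 3mo the mean of 0.365 was 0.899 with the ganglion cell panel and that reference. The panel difference between ages in Müller glia ranged from 294 CPM (without 18mo replicate 3) to 721 CPM with a library left out. It reversed without 18mo replicate 3 in rods (-51.1 CPM) and cones (-55.5 CPM), and its highest values with another library left out were 225 and 297 CPM.

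The number of genes called in a class moved with the model. It was 0 in Müller glia with age alone, 6 with no filter on low counts, 45 with a release term, 55 with the replicate block and 0 to 2 with a library left out, 2 without 3mo replicate 1. In rods it was 0 with age alone, 2 with no filter, 675 with the release term, 1009 with the block and 8 in DESeq2, and in cones 43 with no filter. In horizontal cells it was 1 with age alone, 255 with no filter, 14 with the release term, 29 with the block, 57 in DESeq2, 0 with the marker gate and 0 to 148 with a library left out, 148 without 18mo replicate 1. In cone bipolar cells it was 486 with the release term and 252 with the block. Between rods and amacrine cells it was 1 as reported, 8 with no filter and 0 to 2 with a library left out, 2 without 18mo replicate 1. Of the 9 genes, the release term and the block called 1 each in rods, and no filter called 3 in cones, where 43 of 19393 genes passed. In horizontal cells no filter called 7 (255 of 17990 genes passed), the block 1 and DESeq2 2 (57 of 7523 genes passed). A left-out library gave 0 to 3 there (Lrp1b, Cntn5 and Lrrtm4 without 18mo replicate 1). Csmd1 was called as lower in horizontal cells with no filter (log2 -1.51) and in DESeq2 (log2 -1.45), and the other members called there were higher. Of the relatives, 9 pairs of gene and class were called with the release term and 14 with the block. In rods 60 were tested: 3 were called higher and 2 lower with the release term, and 7 higher and 2 lower with the block. The other calls were all higher. In horizontal cells they were 2 and 3 of 42 tested. Cone bipolar cells and Müller glia gave 1 each time, of 70 and 51 tested. The all-gene counts above were of 11547 tested in rods, 5310 in horizontal cells, 11442 in cone bipolar cells and 6382 in Müller glia. The causes were not tested.

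Single genes reversed as follows. Without 18mo replicate 3, Csmd1 (-0.040), Lrp1b (-0.17) and Dscam (-0.046) reversed in rods, Lingo2 (-0.89) in horizontal cells, and Dscam (-0.11) and Ntrk2 (-0.023) in the term between rods and amacrine cells. Their highest values with another library left out were 0.78, 0.73 and 0.77 in rods, 0.44 for Lingo2, and 0.83 and 0.77 in that term. Without 3mo replicate 1, Lingo2 was -0.22 in horizontal cells and Ntrk2 -0.02 in that term. With the replicate block Lingo2 was -0.14 in horizontal cells. Ntrk2, near 0 in horizontal cells, was 0.0069 in DESeq2, 0.0049 with the block, 0.12 at a Leiden resolution of 0.6 and -0.12 to 0.080 with a library left out. The shallow 3mo Müller libraries, with 57 and 66 nuclei, limit what levels near 0 can show.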
